A study of Mus musculus with 19 samples.

Results

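Livers of wild-type mice kept on an atherogenic diet were compared with livers of wild-type mice kept on chow. Of the 19 mice in the series, 9 belong to this comparison, chosen by the strain and diet in the table's column heads: 4 B6 WT mice on the atherogenic diet and 5 B6 WT mice on chow. The diet was rich in fat and cholesterol and contained cholate, a bile acid. It was given for 16 weeks, the chow group received normal chow, and all mice were 20 weeks old when their livers were taken. The remaining mice, 5 on the atherogenic diet and 5 on chow, are labelled as B6 mice without 5-lipoxygenase, which turns arachidonic acid into the precursor of all leukotrienes, and serve here only to set the diet's effect in that genotype beside the wild-type effect. The labels give neither the sex of the mice nor a founder line for the knockout. Each mouse was hybridised in Cy5 on its own array, and the Cy3 channel held pooled wild-type liver RNA matched for diet (4 mice on the atherogenic diet or 5 on chow), so the ratio to the pool does not carry the diet effect and the Cy5 intensities were compared. Whole liver was sampled, so a level that differs can reflect more or fewer cells of a type or more or less RNA per cell, and these cannot be told apart.

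A liver loaded with dietary cholesterol is known to use several sterol sensors. SREBP2, a transcription factor held in the endoplasmic reticulum while sterols are plentiful, drives the enzymes of cholesterol synthesis. LXR, a nuclear receptor for oxidised sterols, drives the transporters that move cholesterol out of cells and into bile. FXR, the receptor for bile acids, lowers the enzymes that turn cholesterol into bile acids. Fat- and cholesterol-laden liver also gathers macrophages that take up lipid, and stellate cells can lay down collagen. Cholate in such diets is widely known for adding inflammation and matrix deposition to the effect of cholesterol.

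Between 23107 and 23511 probes had a value on each of the 9 arrays. Intensities are in the deposited arbitrary units after normalisation, and levels of different probes are not set against each other. Of the deposited mouse values 45% were at or under 0.05, and 91.5% were whole multiples of 0.01, so dim levels move in coarse steps. Mice of a group resembled each other, with a mean correlation to their group of 0.9781 to 0.9815 on the atherogenic diet and 0.9876 to 0.9893 on chow. The labels name single mice, so p-values measure the spread between mice. The animal marks in the column heads begin with numbers that several mice of a diet share, and no such number occurs in both diets. What these numbers stand for is not stated, so whether mice that share one are independent is not known. No scan date or batch is given in the sources used here, so diet and an unrecorded batch cannot be told apart. All hepatocyte-defining genes measured were above the median brightness, and none of these 4 passed the test: the log2 difference of atherogenic diet minus chow was -0.41 ± 0.16 for albumin (Alb), -0.06 ± 0.17 for transthyretin (Ttr), -0.05 ± 0.18 for Apob and -0.61 ± 0.23 for the transcription factor Hnf4a (SE). Alb passed (adjusted p = 0.047, log2 -0.73) when the array medians were set equal, and its adjusted p ranged up to 0.215 over 17 alternatives.

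The diet changed a large set of genes, most of them upward. At a Benjamini-Hochberg adjusted p under 0.05 in limma, 1916 of 23418 probes passed (8.18%). Of these, 1220 were higher on the atherogenic diet (5.21% of the probes tested) and 696 were lower (2.97%). At least a 2-fold difference was reached by 785 of them, 647 higher and 138 lower. Counted once per gene, by its brightest probe, 1668 of 18652 genes passed (8.94%), 1074 higher (5.76%) and 594 lower (3.18%). All atherogenic livers lay above all chow livers in 7.11% of genes, and below them in 7.52%. The median log2 difference over all genes was -0.05. These shares are the background for every list below. Some lists share members, such as Srebf1 and Lcn2, so their counts are not separate evidence. The count depended on single mice: it was 1011, 1082 and 3075 without atherogenic mice A, B and D, and 1168, 1101 and 1145 without chow mice A, D and E. Setting the array medians equal turned the split round, with 36% of 2350 passing probes higher against 63.7% in the fit reported here, and moved the median of all probes to -0.18 from -0.04. Changes below are given on the reported scale, on which the median of all probes is near 0.

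**Figure D1:**
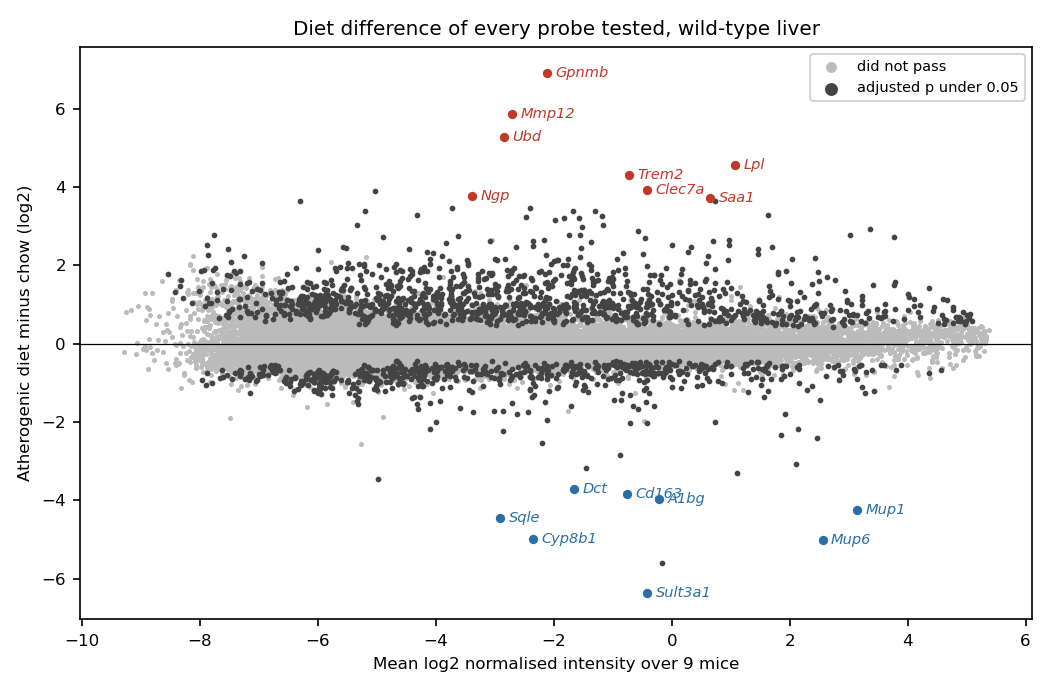
Log2 difference between the atherogenic diet and chow (y axis) against mean log2 intensity over the 9 wild-type mice (x axis) for every probe tested. Dark points have an adjusted p under 0.05, and the 8 largest rises (red) and 8 largest falls (blue) named by the selection rule are labelled, with Gpnmb at 6.91 and Sult3a1 at -6.36.

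Among genes above the median brightness and without overlap between the diets, 4 of the 5 largest rises were in genes known from lipid-laden macrophages, and the third was Ubd, described further on. Gpnmb, a membrane glycoprotein of macrophages filled with lipid, had intensities of 4.34, 1.82, 2.38 and 6.38 in atherogenic mice A to D, against 0.0333, 0.0445, 0.0186, 0.0227 and 0.025 in chow mice A to E. Every atherogenic liver was above every chow liver, and the chow values sat within a few rounding steps of 0. The difference was 6.91 ± 0.37 on the log2 scale (SE, adjusted p = 8.66e-06). Mmp12, the elastase of macrophages, read 2.09, 0.607, 1.2 and 3.06 on the atherogenic diet, against 0.0218, 0.0223, 0.0279, 0.0337 and 0.0227 on chow, a log2 difference of 5.86 ± 0.39 (adjusted p = 2.47e-05). Trem2, a lipid-sensing receptor of macrophages, had 4.24, 1.06, 3.55 and 6.37 on the atherogenic diet, against 0.283, 0.0847, 0.201, 0.214 and 0.106 on chow (log2 4.30 ± 0.50, adjusted p = 0.000529). In all 3 genes mouse D was the highest and mouse B the lowest of the atherogenic livers. Lpl, the lipase that frees fatty acids from circulating triglyceride and is scarcely made by healthy adult hepatocytes, had 16.6, 6.16, 11.1 and 19.5 on the atherogenic diet, against 0.492, 0.71, 0.611, 0.455 and 0.384 on chow (log2 4.56 ± 0.31, adjusted p = 2.59e-05). The same order of mice, D above A above C above B, held for Lpl. Cd63, a tetraspanin of late endosomes, rose 9.69-fold (log2 3.28 ± 0.19, adjusted p = 1.01e-05).

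Of 17 measured genes on the list of lipid-associated macrophages, 15 rose, none fell and the median log2 difference was 1.32, against -0.05 over all genes. The 4 defining markers all passed. Besides Gpnmb and Trem2 these were Cd9, a tetraspanin, with 9.97, 6.68, 7.64 and 15.2 on the atherogenic diet, against 3.2, 3.22, 2.93, 3.08 and 3.86 on chow (log2 1.53 ± 0.22, adjusted p = 0.00206), and Spp1, which encodes osteopontin (log2 1.26 ± 0.18, adjusted p = 0.00193). Lysosomal genes, which such macrophages express strongly, were higher in 13 of 28 measured members with a median of 0.55, and 0 were lower; 8 were higher in the fit of all 19 arrays and with the array medians set equal. Laptm5, a lysosomal membrane protein of blood cells, rose 4.87-fold (log2 2.28 ± 0.29, adjusted p = 0.000925), and Ctss, cathepsin S, rose 6.67-fold (log2 2.74 ± 0.25, adjusted p = 0.000126). Ctsd, cathepsin D, had 1.14, 0.723, 0.851 and 1.19 on the atherogenic diet, against 0.347, 0.536, 0.428, 0.455 and 0.552 on chow (log2 1.07 ± 0.20, adjusted p = 0.00817), but did not pass in the fit of all 19 arrays (adjusted p = 0.0769, the highest of 17 alternatives, the lowest being 0.00262).

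Sequences before the start sites of Mmp12 and Ctsd are shown because both genes carry a motif that is well known in the biology of their class. They are the 250 bases before the RefSeq start in GRCm38.p6, 5′ to 3′ on the gene's strand, at chr9:7344147-7344396 (plus strand) for Mmp12 and chr7:142387828-142388077 (minus strand) for Ctsd. Of the 2 Mmp12 promoters available, the one with the most matches to the motif was picked. Capitals mark GAGGAAGT, a site of the PU.1 type in Mmp12, read here on the opposite strand, and TCACGTGA, the E-box of lysosomal genes, in Ctsd.
Mmp12: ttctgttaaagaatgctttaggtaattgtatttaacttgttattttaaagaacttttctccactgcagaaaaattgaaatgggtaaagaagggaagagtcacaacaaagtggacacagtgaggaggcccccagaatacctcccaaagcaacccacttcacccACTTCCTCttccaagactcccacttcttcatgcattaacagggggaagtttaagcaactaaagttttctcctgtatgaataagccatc
Ctsd: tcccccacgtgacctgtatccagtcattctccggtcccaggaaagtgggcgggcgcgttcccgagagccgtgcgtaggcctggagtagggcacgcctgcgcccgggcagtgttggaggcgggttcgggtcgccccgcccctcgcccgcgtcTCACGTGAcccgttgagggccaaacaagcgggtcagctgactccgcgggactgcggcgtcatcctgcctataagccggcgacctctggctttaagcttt
The motif GAGGAAGT, searched on both strands, was present in 2 of 13 lipid-associated macrophage genes with a promoter in the table (Mmp12 and Spp1), and in 2.79% of all 27025 genes. Among genes of monocytes and infiltrating macrophages it was present in 1 of 18 (Ly6c2). TCACGTGA was present in 4 of 23 lysosomal genes (Atp6v1a, Ctsa, Ctsd and Gla), and in 0.907% of all genes. In Mmp12 the match starts 88 bases before the start, and in Ctsd 99 bases before it. These matches describe letters and not bound sites.

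Most genes of monocytes and infiltrating macrophages rose too. Of 21 measured, 16 rose, none fell and the median was 1.85. Clec7a, the beta-glucan receptor dectin-1, had 4.34, 4.49, 2.02 and 3.34 on the atherogenic diet, against 0.188, 0.159, 0.323, 0.247 and 0.227 on chow (log2 3.93 ± 0.27, adjusted p = 2.59e-05). Itgax, the integrin CD11c, had 0.813, 1.57, 1.02 and 1.35 on the atherogenic diet, against 0.128, 0.139, 0.105, 0.0878 and 0.0966 on chow (log2 3.39 ± 0.22, adjusted p = 2.32e-05). Both are among the largest rises, which were selected for having every atherogenic liver above every chow liver. The 2 lysozyme genes, Lyz1 and Lyz2, rose by 3.22 ± 0.35 and 2.58 ± 0.30 on the log2 scale; they are near-identical copies, and their probes may share signal. Ccr2, the chemokine receptor of monocytes fresh from blood, was dim, at 0.0139, 0.0297, 0.0214 and 0.0219 on the atherogenic diet, against 0.0121, 0.0219, 0.0105, 0.0131 and 0.0139 on chow, and did not pass (log2 0.60 ± 0.25, adjusted p = 0.151). The macrophage marker Cd68 rose by 0.81 ± 0.12 on the log2 scale (adjusted p = 0.00228).

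Kupffer cells are the resident macrophages of liver sinusoids, and their genes split. Of 17 measured identity genes 10 rose, 1 fell and the median was 1.26. Cd5l, a secreted scavenger protein, had 4.64, 4.73, 4.49 and 4.15 on the atherogenic diet, against 0.629, 0.753, 1.1, 0.581 and 0.65 on chow (log2 2.64 ± 0.19, adjusted p = 2.74e-05). C1qc, a chain of complement C1q, rose by 1.85 ± 0.16 and Adgre1, the macrophage antigen F4/80, by 1.63 ± 0.24 on the log2 scale. The complement receptor Vsig4 (log2 1.36 ± 0.23) and the lectin Clec1b (log2 1.58 ± 0.22) also rose. The single fall was Cd163, the receptor that clears haemoglobin bound to haptoglobin. It had 0.0439, 0.76, 0.0714 and 0.142 on the atherogenic diet, against 3.1, 1.36, 1.94, 1.93 and 1.65 on chow (log2 -3.82 ± 0.66, adjusted p = 0.00559). Mouse B kept the highest level of the atherogenic livers and still lay below every chow liver, as the selection of Cd163 among the largest falls required. Timd4, a receptor for dying cells on long-lived Kupffer cells, was at 0.115, 0.698, 0.158 and 0.207 on the atherogenic diet, against 0.201, 0.439, 0.226, 0.201 and 0.197 on chow, with no difference that passed (log2 -0.08 ± 0.46, adjusted p = 0.925). Marco, a scavenger receptor, was high in mouse B of either diet, at 6.04 on the atherogenic diet and 8.38 on chow, against at most 1.7 in the other livers (log2 0.42 ± 0.80, adjusted p = 0.756). Clec4f, a Kupffer lectin, differed by 0.93 ± 0.27 (adjusted p = 0.0542); it passed in 6 of 17 alternatives, among them without atherogenic mouse D (log2 1.05, adjusted p = 0.0394) and without chow mouse C (log2 1.1, adjusted p = 0.0293), over a range of 0.0149 to 0.132.

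**Figure D2:**
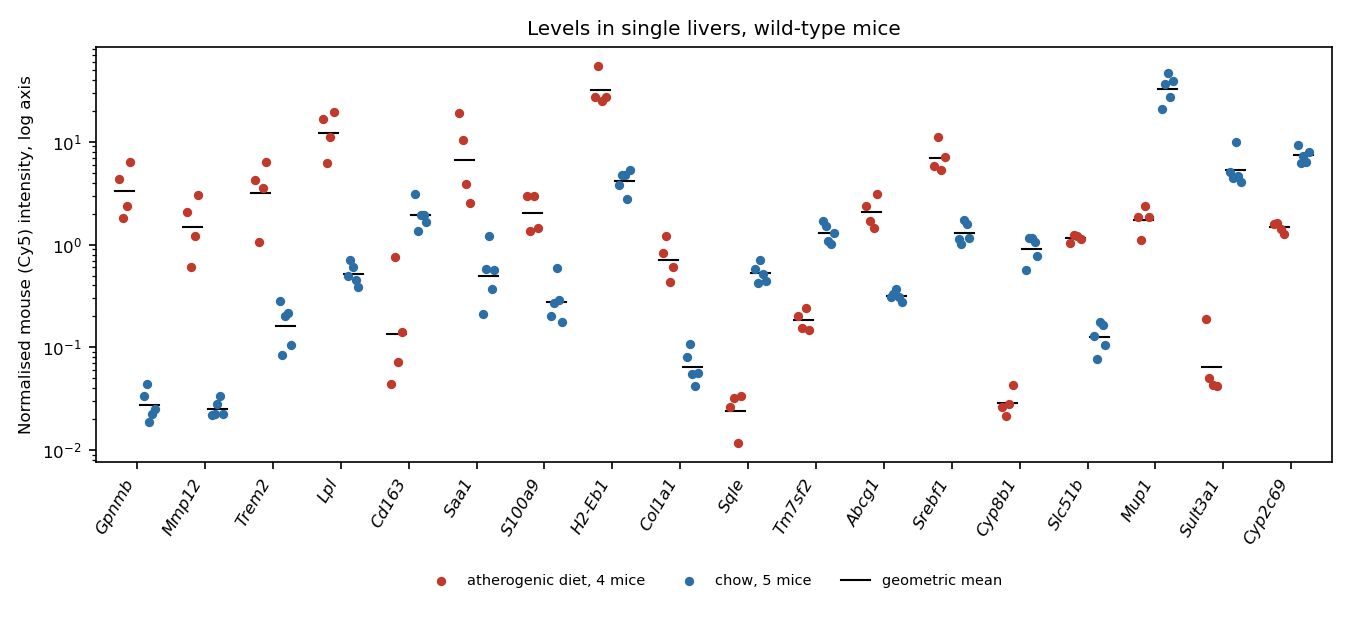
Normalised intensity (log axis) of 18 genes in each wild-type liver, with red points for the 4 mice on the atherogenic diet left of blue points for the 5 on chow, and a black line at the geometric mean. In all 18 genes the groups do not overlap, which the selection rule required of all but S100a9, H2-Eb1, Abcg1, Srebf1 and Slc51b. Saa1 spans 2.51 to 19 on the atherogenic diet, and Slc51b only 1.04 to 1.23.

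Part of the acute phase and neutrophil genes rose. Of 21 measured acute phase genes 12 rose and none fell, with a median of 0.86; without atherogenic mouse A the count was 7. Saa1, a serum amyloid A protein of the inflamed liver, had 19, 10.4, 3.91 and 2.51 on the atherogenic diet, against 0.211, 0.579, 1.21, 0.369 and 0.561 on chow (log2 3.73 ± 0.60, adjusted p = 0.00387). Saa3 had 19.2, 11.5, 3.77 and 2.5 on the atherogenic diet, against 0.232, 0.617, 1.24, 0.4 and 0.641 on chow (log2 3.65 ± 0.61, adjusted p = 0.00458). The 2 probes followed each other mouse by mouse, and whether they report the same transcripts was not tested. Saa2 had a value in only 3 atherogenic mice and rose 6.82-fold (adjusted p = 0.00754). Lcn2, lipocalin 2, which withholds iron from bacteria, had 2.84, 0.718, 0.899 and 0.795 on the atherogenic diet, against 0.0935, 0.19, 0.242, 0.111 and 0.106 on chow (log2 2.99 ± 0.42, adjusted p = 0.00164). Mouse A was the highest for Lcn2 as for the Saa genes. The haem carrier Hpx rose 2.69-fold (log2 1.42 ± 0.19, adjusted p = 0.0013), and Il1r1, the interleukin 1 receptor, rose 3.46-fold (log2 1.79 ± 0.24, adjusted p = 0.00135).

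All 4 defining neutrophil markers rose, and 7 of 13 measured neutrophil genes passed, all upward, with a median of 0.80. The 7 include Lcn2, named above with the acute phase genes. Of the 6 that did not pass, the granule protease genes Elane and Prtn3 had differences below 0. These were -0.70 ± 0.29 and -0.42 ± 0.22 on the log2 scale (adjusted p = 0.147 and 0.239). S100a9, a chain of calprotectin, had 2.99, 1.37, 2.94 and 1.44 on the atherogenic diet, against 0.201, 0.273, 0.597, 0.291 and 0.178 on chow (log2 2.87 ± 0.37, adjusted p = 0.000985). Its partner S100a8 rose 6.25-fold (log2 2.64 ± 0.33, adjusted p = 0.000938). Ngp, a granule protein of maturing neutrophils, had 0.663, 0.163, 0.805 and 0.322 on the atherogenic diet, against 0.0333, 0.0333, 0.0263, 0.0333 and 0.025 on chow (log2 3.77 ± 0.39, adjusted p = 0.000268). In these genes mice A and C were above mice B and D, and no atherogenic liver met the chow range, which for Ngp the selection rule required. Mpo, myeloperoxidase, was dim and rose by 1.51 ± 0.26 (adjusted p = 0.00496), a call lost in the fit of all 19 arrays (adjusted p = 0.158, the highest of 16 alternatives, the lowest being 0.00212).

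Of 34 measured chemokine and cytokine genes, the signals that attract and direct leukocytes, 12 rose and none fell, with a median of 0.96. Cxcl1, a neutrophil attractant, had 3.39, 1.3, 1.15 and 0.955 on the atherogenic diet, against 0.105, 0.76, 0.127, 0.0559 and 0.104 on chow (log2 3.38 ± 0.65, adjusted p = 0.0101). Ccl2, a monocyte attractant, had 1.05, 1.37, 0.725 and 0.924 on the atherogenic diet, against 0.0949, 0.748, 0.0969, 0.0784 and 0.116 on chow (log2 2.78 ± 0.57, adjusted p = 0.0141). Chow mouse B stood apart from the other chow livers in both, and for Ccl2 it overlapped the atherogenic range. Vcam1, the adhesion molecule that captures leukocytes, rose in a tighter pattern, at 1.69, 2.77, 1.44 and 2.25 on the atherogenic diet, against 0.541, 0.443, 0.56, 0.606 and 0.454 on chow (log2 1.93 ± 0.20, adjusted p = 0.000268).

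Genes of antigen presentation were higher in 11 of 16 measured members, with a median of 1.00; the count was 7 without any 1 of atherogenic mice A and B and chow mice A, B and D. H2-Eb1, a chain of MHC class II, had 27.4, 54.8, 25.2 and 27.1 on the atherogenic diet, against 3.82, 4.79, 4.72, 2.79 and 5.26 on chow (log2 2.93 ± 0.26, adjusted p = 9.8e-05). H2-Ab1 (log2 2.61 ± 0.26) and H2-Aa (log2 2.34 ± 0.23) rose with it. Mouse B had the highest level of the atherogenic livers for each of the 3 class II genes. Ubd, a ubiquitin-like protein induced by interferon gamma and tumour necrosis factor, had 0.9, 2.39, 1.07 and 0.563 on the atherogenic diet, against 0.0098, 0.0533, 0.0384, 0.0227 and 0.0344 on chow (log2 5.28 ± 0.50, adjusted p = 0.000141). Psmb9, a subunit of the immunoproteasome, rose 2.33-fold (log2 1.22 ± 0.23, adjusted p = 0.0091). Interferon-stimulated genes were higher in 5 of 22, with a median of 0.65. That count was 3 without atherogenic mouse A or any 1 of chow mice A, C, D and E, and 8 without atherogenic mouse D or with an intensity trend in eBayes. Oasl2 rose by 1.61 ± 0.32 and Mx1, an antiviral GTPase, by 1.34 ± 0.21 on the log2 scale.

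Lymphocyte genes were higher in 3 of 26, a share of 11.5% against 5.76% over all genes, and in 6 without chow mouse B; the median was 0.15. The 3 were Blnk, a B cell adaptor, Cd22, a B cell lectin, and Klrd1, the natural killer receptor CD94, with log2 differences of 2.04 ± 0.34, 1.83 ± 0.17 and 1.70 ± 0.22. The defining markers Cd3e of T cells (log2 0.03 ± 0.15, adjusted p = 0.914) and Cd79a of B cells (log2 0.18 ± 0.29, adjusted p = 0.712) did not pass. Nkg7, the remaining defining marker, differed in the direction opposite to Klrd1, by -0.50 ± 0.15 on the log2 scale. It did not pass either (adjusted p = 0.0592), although every atherogenic liver lay below every chow liver.

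**Figure D3:**
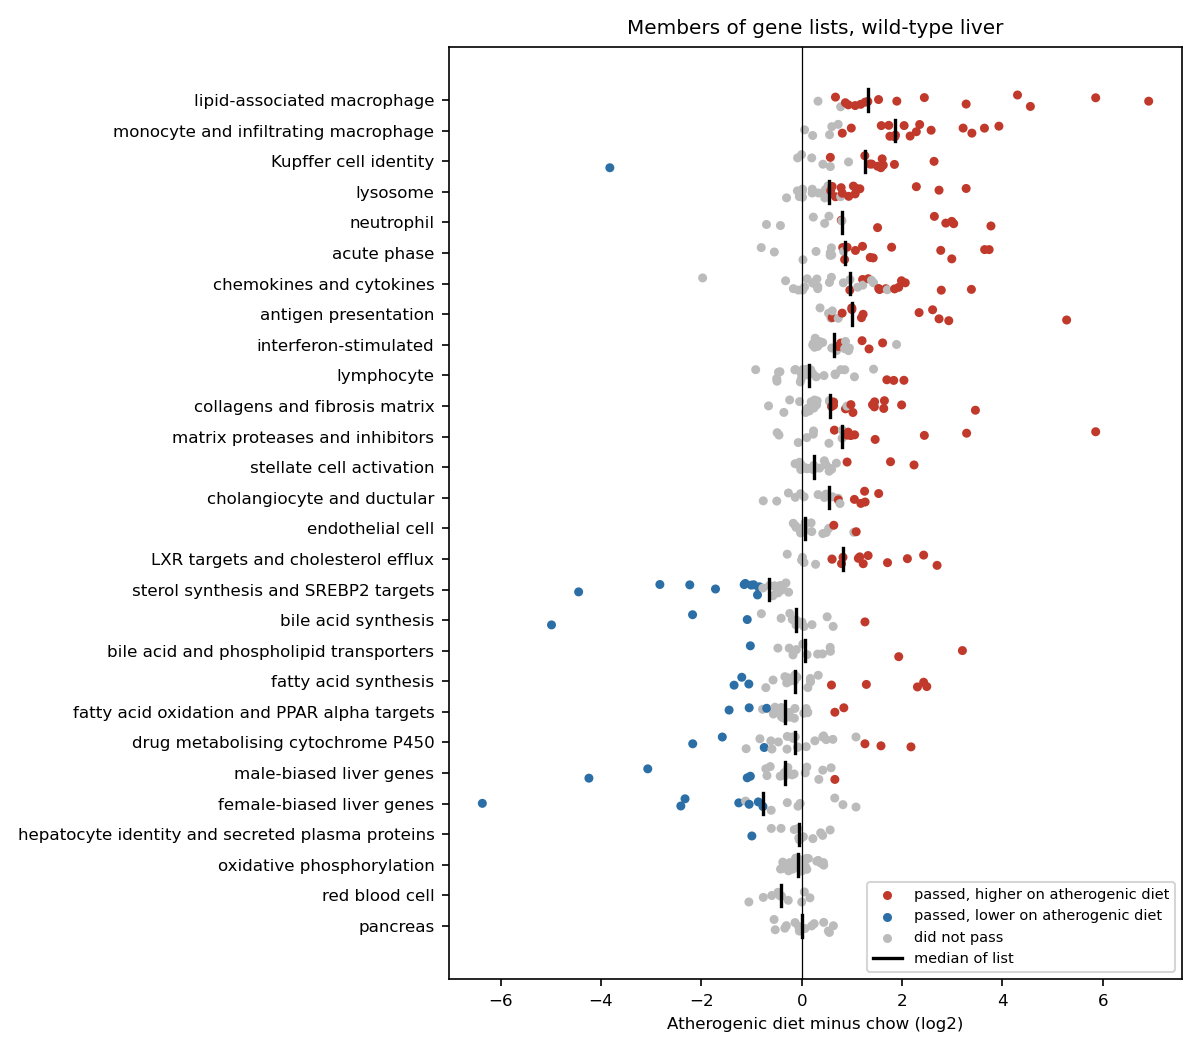
Log2 difference between the atherogenic diet and chow for each measured member of 28 gene lists, 1 row a list, with red and blue for members that passed upward and downward, grey for those that did not, and a black bar at the list's median. The macrophage lists lie to the right with medians of 1.32, 1.85 and 1.26, the sterol synthesis list to the left at -0.64, and oxidative phosphorylation has a median of -0.08 on this scale.

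Both chains of type I collagen rose, with part of the matrix genes around them. Of 29 measured collagen and matrix genes 13 rose, none fell and 16 did not pass, with a median of 0.56; 2 were lower without atherogenic mouse D. Col1a1, the main chain of type I collagen, had 0.826, 1.2, 0.433 and 0.603 on the atherogenic diet, against 0.0809, 0.107, 0.0555, 0.0424 and 0.0561 on chow (log2 3.46 ± 0.32, adjusted p = 0.000133). Its partner chain Col1a2 had 0.995, 0.94, 0.571 and 0.911 on the atherogenic diet, against 0.237, 0.286, 0.205, 0.169 and 0.176 on chow (log2 1.99 ± 0.21, adjusted p = 0.000331). Mouse C was the lowest of the atherogenic livers for both chains. The proteoglycan lumican (Lum), type VI collagen Col6a3 and the matrix protein Sparc rose 3.13-, 3.1- and 2.73-fold. Col3a1, a chain that usually accompanies type I collagen, gave near-floor values of 0.0106 to 0.0303 on the atherogenic diet, against 0.0121 to 0.0263 on chow (log2 -0.04 ± 0.30, adjusted p = 0.942). Matrix proteases and their inhibitors were higher in 9 of 18 measured, none lower, with a median of 0.81. Mmp7, Mmp13 and Mmp2 rose by 3.29 ± 0.52, 2.44 ± 0.25 and 1.46 ± 0.26 on the log2 scale, the first 2 from chow levels of 0.0587 or less.

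Markers that define stellate cells did not pass the test. Lrat, which stores vitamin A, differed by -0.02 ± 0.20, Reln by 0.10 ± 0.19 and Acta2, the smooth muscle actin of activated stellate cells, by 0.23 ± 0.32, with adjusted p of 0.96, 0.761 and 0.666. Acta2 had 0.193, 0.22, 0.113 and 0.137 on the atherogenic diet, against 0.128, 0.193, 0.201, 0.066 and 0.145 on chow, and the groups overlapped throughout. On the list of stellate cell activation 3 of 21 rose, with a median of 0.24, among them vimentin (Vim, log2 2.24 ± 0.23) and the calcium-binding protein S100a6 (log2 1.77 ± 0.23), which many other cells also express. Bile duct and ductular genes were higher in 6 of 18 measured, with a median of 0.55, but none of the 4 defining markers passed. The keratins Krt7 and Krt19 differed by 0.33 ± 0.17 and -0.02 ± 0.15 (adjusted p = 0.233 and 0.935), Epcam by 0.62 ± 0.20 (adjusted p = 0.0777) and Sox9 by 0.76 ± 0.26 (adjusted p = 0.0892). Sox9 passed without atherogenic mouse D (log2 1.00, adjusted p = 0.0202), in 1 of 17 alternatives, where its adjusted p reached 0.222. Endothelial genes were higher in 2 of 18 (11.1%), with a median of 0.06. The count was 1 without any 1 of atherogenic mice A and B and chow mice A, C and D. Cd34 rose by 1.09 ± 0.18, while none of the 3 defining markers passed. The sinusoidal marker Stab2 differed by 0.03 ± 0.20 (adjusted p = 0.944) and Pecam1 by -0.01 ± 0.15 (adjusted p = 0.981). Lyve1, a dim probe brighter than only 21% of probes, was higher by 1.04 ± 0.30 on the log2 scale. It came close to the threshold but did not pass (adjusted p = 0.0558).

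Genes of cholesterol synthesis were lower along the pathway. All 25 measured genes of the sterol synthesis and SREBP2 list had a difference below 0, 11 of them passed, and the median was -0.64, against -0.05 over all genes. With the array medians set equal 19 passed. Sqle, squalene epoxidase, had 0.0262, 0.0325, 0.0118 and 0.0333 on the atherogenic diet, against 0.585, 0.422, 0.705, 0.513 and 0.443 on chow (log2 -4.45 ± 0.30, adjusted p = 2.47e-05). Tm7sf2, a sterol C14-reductase, had 0.201, 0.156, 0.241 and 0.147 on the atherogenic diet, against 1.7, 1.51, 1.08, 1.02 and 1.29 on chow (log2 -2.83 ± 0.20, adjusted p = 2.74e-05). Cyp51, the lanosterol demethylase, had 0.051, 0.0886, 0.0342 and 0.0753 on the atherogenic diet, against 0.226, 0.222, 0.324, 0.291 and 0.329 on chow (log2 -2.23 ± 0.27, adjusted p = 0.000613). For each of these enzymes every atherogenic liver lay below every chow liver, which their selection among the largest falls required. Fdps, farnesyl diphosphate synthase, fell by 1.72 on the log2 scale (adjusted p = 0.00315), and Msmo1, the C4-methyl sterol oxidase, by 1.12 (adjusted p = 0.0101). In the fit of all 19 arrays these 2 genes missed the threshold, with adjusted p of 0.0551 and 0.0689, the highest of 17 alternatives each, the lowest being 0.000904 and 0.00306. Stard4, a carrier of cholesterol inside cells, fell to 0.0139 to 0.0219 in atherogenic livers, against 0.0339 to 0.0559 in chow livers, at the level where rounding is coarse.

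Hmgcs1, the HMG-CoA synthase early in the pathway, did not pass. It had 2.63, 4.75, 2.04 and 2.24 on the atherogenic diet, against 4.0, 5.62, 4.01, 4.63 and 5.45 on chow (log2 -0.77 ± 0.24, adjusted p = 0.0717). Atherogenic mouse B alone reached the chow range, and without it Hmgcs1 passed (log2 -1.04, adjusted p = 0.00857), as it did in 4 of 17 alternatives, over a range of 0.00857 to 0.164.

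Promoters of 4 sterol genes are shown because CCAAT, the box bound by NF-Y, a known partner of SREBP2, lies in each. They are the 250 bases before the RefSeq start in GRCm38.p6, 5′ to 3′ on the gene's strand, at chr19:6067851-6068100 (minus strand) for Tm7sf2, chr5:4104698-4104947 (minus strand) for Cyp51, chr8:64733579-64733828 (minus strand) for Msmo1 and chr13:119690101-119690350 (plus strand) for Hmgcs1. Capitals mark CCAAT on either strand and, in Hmgcs1, TCACCCCAC, which matches the sterol regulatory element written TCACNCCAC.
Tm7sf2: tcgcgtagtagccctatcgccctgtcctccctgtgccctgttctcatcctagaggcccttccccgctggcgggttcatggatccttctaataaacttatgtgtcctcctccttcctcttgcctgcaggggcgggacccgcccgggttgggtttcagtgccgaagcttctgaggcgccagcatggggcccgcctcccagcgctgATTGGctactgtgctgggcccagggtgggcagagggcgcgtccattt
Cyp51: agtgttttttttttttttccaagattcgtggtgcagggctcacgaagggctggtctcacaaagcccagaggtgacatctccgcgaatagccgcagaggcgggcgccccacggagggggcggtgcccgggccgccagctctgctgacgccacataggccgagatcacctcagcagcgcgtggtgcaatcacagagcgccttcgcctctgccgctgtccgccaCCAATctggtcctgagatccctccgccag
Msmo1: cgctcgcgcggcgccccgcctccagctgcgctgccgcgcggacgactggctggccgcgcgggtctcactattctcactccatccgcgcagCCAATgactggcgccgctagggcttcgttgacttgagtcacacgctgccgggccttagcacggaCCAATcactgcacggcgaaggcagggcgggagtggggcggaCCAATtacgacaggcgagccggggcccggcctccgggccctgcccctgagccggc
Hmgcs1: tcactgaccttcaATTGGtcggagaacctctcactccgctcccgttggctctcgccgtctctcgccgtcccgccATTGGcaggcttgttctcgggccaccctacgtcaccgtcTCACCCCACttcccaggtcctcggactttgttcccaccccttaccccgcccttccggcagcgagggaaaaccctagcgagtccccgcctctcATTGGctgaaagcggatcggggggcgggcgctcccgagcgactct
A CCAAT box was found in 16 of the 17 sterol list genes with a promoter in the table (94.1%), against 10133 of all 27025 genes (37.5%). It begins 47 bases before the start in Tm7sf2 and 29 bases before it in Cyp51, with 3 boxes each in Msmo1 and Hmgcs1. TCACNCCAC was found in 1 of the 17 (Hmgcs1) and in 1.22% of all genes. The matches are letters in a window; binding was not measured.

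Most genes on the list of LXR targets and cholesterol efflux rose. The list also holds the LXR genes Nr1h2 and Nr1h3 and genes of general cholesterol handling, among them Soat1, Npc2 and Scarb1. Of 17 measured genes of LXR and cholesterol efflux 11 rose and none fell, with a median of 0.82; without chow mouse E 7 passed. Abcg1, which loads cholesterol onto HDL, had 2.37, 1.69, 1.44 and 3.11 on the atherogenic diet, against 0.306, 0.332, 0.369, 0.307 and 0.279 on chow (log2 2.70 ± 0.21, adjusted p = 5.09e-05). Srebf1, the gene of the lipogenic factor SREBP1, had 5.77, 11.1, 5.34 and 7.07 on the atherogenic diet, against 1.14, 1.02, 1.73, 1.59 and 1.17 on chow (log2 2.43 ± 0.24, adjusted p = 0.000185). Abcg5, a part of the transporter that secretes cholesterol into bile, had 10.5, 14.5, 8.81 and 15.7 on the atherogenic diet, against 3.32, 3.85, 3.87, 3.47 and 3.96 on chow (log2 1.71 ± 0.18, adjusted p = 0.000331). Its partner Abcg8 rose by 1.23 ± 0.20, and Soat1, which esterifies cholesterol for storage, by 2.11 ± 0.19 on the log2 scale. In none of these 5 genes did the diets overlap. Abca1, which loads cholesterol onto apolipoprotein A-I, differed by 1.32 ± 0.32 (adjusted p = 0.0317), and 1 atherogenic mouse, C at 0.0492, lay within the chow range of 0.0331 to 0.054. The Abca1 call was lost without atherogenic mouse A or B (adjusted p = 0.0913 and 0.0677) or chow mouse A, C, D or E (0.0755, 0.0697, 0.0611 and 0.0619), over a range of 0.0018 to 0.0913 in 16 alternatives.

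**Figure D4:**
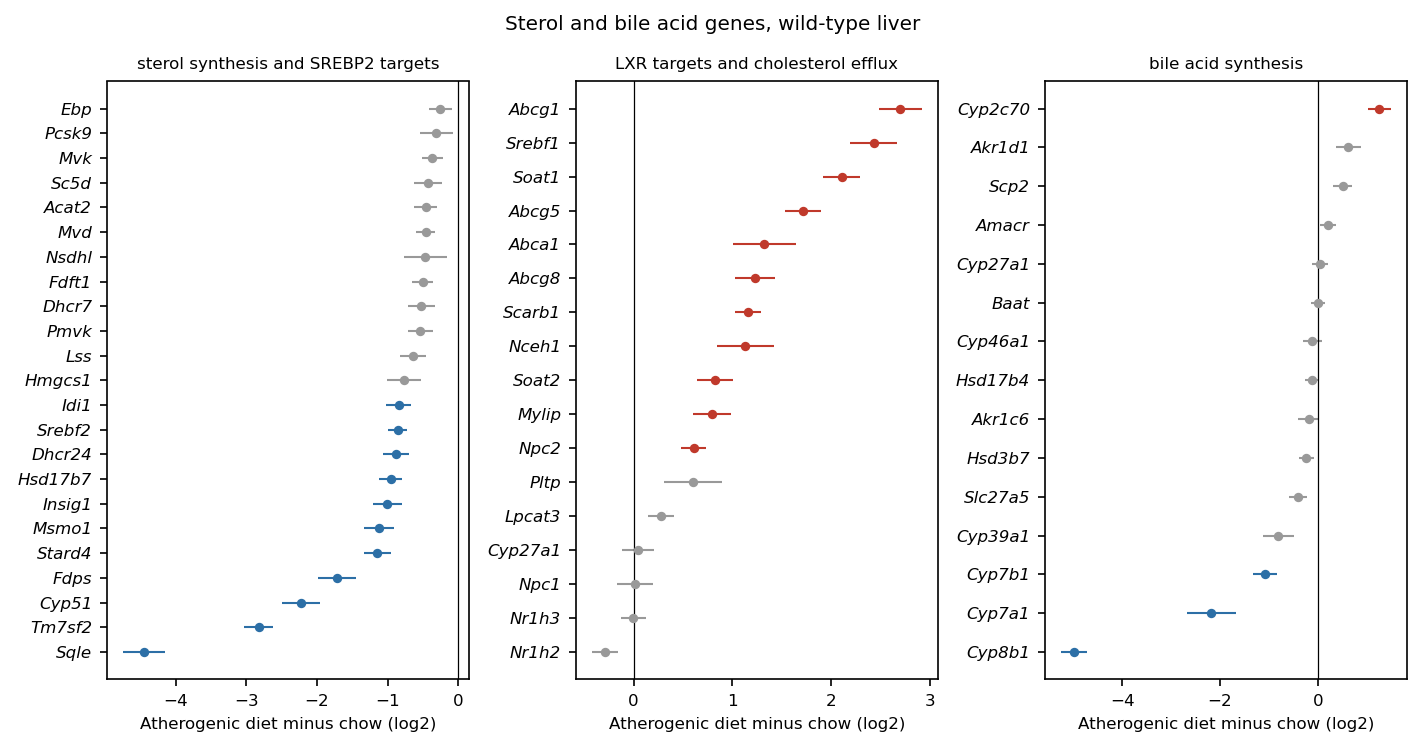
Log2 difference between the atherogenic diet and chow ± SE for genes of sterol synthesis (left, 23 of the 25 measured), LXR and cholesterol efflux (middle) and bile acid synthesis (right), blue and red for genes that passed downward and upward and grey for those that did not. All 23 sterol genes drawn lie left of 0, from -4.45 for Sqle. Of 17 genes of LXR and cholesterol efflux 11 passed to the right, up to 2.70 for Abcg1.

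Genes of fatty acid synthesis split. Of 21 measured genes of fatty acid synthesis 5 rose and 3 fell, with a median of -0.13, and 5 fell without atherogenic mouse D. Scd1, the delta-9 desaturase, had 0.534, 0.531, 0.53 and 0.446 on the atherogenic diet, against 0.152, 0.0849, 0.0635, 0.0769 and 0.0961 on chow (log2 2.49 ± 0.22, adjusted p = 0.000105), and Scd2 rose by 2.31 ± 0.24. Mid1ip1, which activates acetyl-CoA carboxylase, rose 2.44-fold. Fads1, the delta-5 desaturase of polyunsaturated fatty acids, had 5.93, 5.65, 7.02 and 9.33 on the atherogenic diet, against 17.4, 14.5, 18.1, 13.6 and 15.2 on chow (log2 -1.19 ± 0.17, adjusted p = 0.00214). Fasn, fatty acid synthase, did not pass (log2 0.33 ± 0.20, adjusted p = 0.292). Genes of fatty acid oxidation and PPAR alpha had a median of -0.34, with 2 of 24 higher and 3 lower. None was higher without any 1 of atherogenic mice A, B and C and chow mice A, B, D and E, and 1 was higher and 6 were lower without atherogenic mouse D. With the array medians set equal 1 was higher and 11 were lower. Bdh1, which makes the ketone body beta-hydroxybutyrate, fell by 0.70 on the log2 scale (adjusted p = 0.0162). Vnn1, a pantetheinase under PPAR alpha, fell by 1.45 (adjusted p = 0.000678), but not past the threshold in the fit of all 19 arrays (adjusted p = 0.0969, the highest of 17 alternatives, the lowest being 7.67e-05). Oxidative phosphorylation genes showed 0 of 31 past the threshold in limma, with a median of -0.08, but 9 were lower and the median was -0.51 with the array medians set equal.

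In bile acid synthesis the largest change was in the branch to cholic acid. Cyp8b1, the sterol 12-alpha-hydroxylase that commits the pathway to cholic acid, had 0.0262, 0.0214, 0.0283 and 0.0435 on the atherogenic diet, against 0.571, 1.16, 1.16, 1.06 and 0.782 on chow (log2 -4.99 ± 0.26, adjusted p = 8.66e-06). Its level on the atherogenic diet lay within a few rounding steps of 0 in all 4 mice. Cyp7a1, the rate-limiting enzyme of the classical pathway, had 0.0627, 0.0303, 0.0197 and 0.0109 on the atherogenic diet, against 0.128, 0.179, 0.116, 0.166 and 0.044 on chow (log2 -2.17 ± 0.51, adjusted p = 0.0255). Chow mouse E lay inside the atherogenic range. The Cyp7a1 call was lost without atherogenic mouse B or C (adjusted p = 0.0531 and 0.052) or chow mouse A, B, C or D (0.0615, 0.055, 0.0555 and 0.0627), over a range of 0.0107 to 0.0627 in 16 alternatives. Cyp7b1, of the alternative pathway, fell by 1.09 on the log2 scale (adjusted p = 0.0228), a call lost without atherogenic mouse A (adjusted p = 0.0702), chow mouse D (0.0546) or chow mouse E (0.0568), over a range of 0.00163 to 0.0702. Cyp2c70, which makes the muricholic acids in mice, rose, with 41.2, 21, 27.2 and 19.5 on the atherogenic diet, against 10.8, 12.9, 10.5, 8.31 and 12.4 on chow (log2 1.26 ± 0.23, adjusted p = 0.00699). With the array medians set equal Cyp2c70 differed by 0.67 and did not pass (adjusted p = 0.0726, the highest of 17 alternatives, the lowest being 0.0018). Over the 15 measured genes 1 rose and 3 fell, with a median of -0.12, and 1 fell without chow mouse D. With the array medians set equal none rose and 8 fell, with a median of -0.89.

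Around these enzymes, FXR itself did not pass (Nr1h4, log2 -0.24 ± 0.18, adjusted p = 0.42). Nr0b2, the repressor SHP and a classical FXR target, had 0.379, 0.272, 0.297 and 0.353 on the atherogenic diet, against 0.0695, 0.117, 0.161, 0.0984 and 0.269 on chow (log2 1.33 ± 0.33, adjusted p = 0.0327). The groups only just missed each other, at atherogenic mouse B and chow mouse E, and the call was lost without atherogenic mouse A or B (adjusted p = 0.0898 and 0.0587) or chow mouse A, B or D (0.0586, 0.0629 and 0.0781), over a range of 0.00611 to 0.0898. Slc51b, a subunit of the basolateral exporter of bile acids and another FXR target, had 1.04, 1.23, 1.22 and 1.13 on the atherogenic diet, against 0.128, 0.0772, 0.178, 0.166 and 0.106 on chow (log2 3.20 ± 0.23, adjusted p = 2.74e-05). Abcb1a, a multidrug efflux pump, had 1.2, 1.21, 1.11 and 1.36 on the atherogenic diet, against 0.309, 0.272, 0.346, 0.398 and 0.284 on chow (log2 1.93 ± 0.15, adjusted p = 4.71e-05). Both transporters were tightly grouped within a diet. The canalicular bile salt export pump Abcb11 (log2 0.41 ± 0.18, adjusted p = 0.167) and the uptake carrier Slc10a1, dim at 0.0315 to 0.0354 on the atherogenic diet, against 0.0224 to 0.0468 on chow, did not pass (log2 -0.17 ± 0.21, adjusted p = 0.62).

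The 15 largest falls among bright genes without overlap between the diets held pheromone carriers, sulphotransferases and sex-biased cytochromes P450, beside Cyp8b1, Sqle and Cd163 described above. Sult3a1, a sulphotransferase that is female-biased in mouse liver, had 0.19, 0.0504, 0.0431 and 0.0423 on the atherogenic diet, against 5.11, 4.44, 9.93, 4.68 and 4.05 on chow (log2 -6.36 ± 0.43, adjusted p = 2.59e-05). Mup6 had 0.952, 0.496, 1.67 and 0.683 on the atherogenic diet, against 22.7, 31.7, 34.3, 18.2 and 35.3 on chow (log2 -5.01 ± 0.33, adjusted p = 2.47e-05), and Mup1 had 1.87, 1.11, 2.35 and 1.86 on the atherogenic diet, against 21, 36.4, 46.2, 27.5 and 39 on chow (log2 -4.24 ± 0.27, adjusted p = 2.32e-05). Mup3 fell by 3.07 on the log2 scale. The Mup genes, which encode the major urinary proteins that carry pheromones and are higher in males, are near-identical copies, so their probes may read a shared signal. Sult2a8, a sulphotransferase of bile acids, had 0.543, 1.44, 0.848 and 0.198 on the atherogenic diet, against 3.9, 5.04, 9.42, 4.13 and 9.5 on chow (log2 -3.30 ± 0.51, adjusted p = 0.00289). Cyp2c69 had 1.6, 1.63, 1.41 and 1.27 on the atherogenic diet, against 9.39, 6.18, 7.31, 6.42 and 7.92 on chow (log2 -2.32 ± 0.16, adjusted p = 2.59e-05). Its relatives Cyp2c54 and Cyp2c40, again a family of close copies, fell by 2.17 and 1.58 on the log2 scale, and Cyp17a1, the steroid 17-alpha-hydroxylase, by 2.41.

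Sex-biased genes were examined as 2 lists. Of 15 measured female-biased genes 7 fell and none rose, with a median of -0.77, while 3.18% of all genes fell. Of 19 male-biased genes 4 fell, 1 rose and 14 did not pass, with a median of -0.33. Of these 4 falls, 2 were Mup genes, and the single rise, Cyp4a12a (adjusted p = 0.0498), was lost when any 1 mouse other than chow mouse C was left out. Cyp17a1 and Acot3, an acyl-CoA thioesterase (log2 -1.25 ± 0.25, adjusted p = 0.0137), were among the female-biased falls. Of 25 drug-metabolising cytochromes P450 3 were higher and 3 lower, with a median of -0.13. The number lower was 5 without atherogenic mouse C, and with the array medians set equal 1 was higher and 8 lower, with a median of -0.56. A1bg, a secreted plasma glycoprotein, had 0.338, 0.283, 0.105 and 0.127 on the atherogenic diet, against 8.12, 3.04, 3.87, 1.05 and 2.1 on chow (log2 -3.95 ± 0.54, adjusted p = 0.00145). Dct, known as an enzyme of melanin synthesis, fell by 3.70 and Susd4, a complement regulator, by 3.17 on the log2 scale. The aldo-keto reductases of the Akr1b family went the other way. Akr1b7, a detoxifier of lipid aldehydes, had 2.14, 1.12, 1.61 and 1.52 on the atherogenic diet, against 0.337, 0.305, 0.0651, 0.144 and 0.116 on chow (log2 3.27 ± 0.44, adjusted p = 0.00128), and Akr1b3, aldose reductase, rose 2.34-fold. Egr2, an immediate early transcription factor, rose by 3.47 ± 0.38, from dim chow values of 0.0533 or less.

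Leukotriene genes were examined because the series is built on 5-lipoxygenase. Of 20 measured pathway genes 6 rose and 1 fell, with a median of 0.26, and 3 rose without atherogenic mouse A. Alox5 itself was dim and did not pass, at 0.0592, 0.0517, 0.0653 and 0.0544 on the atherogenic diet, against 0.0448, 0.0334, 0.0451, 0.0452 and 0.0455 on chow (log2 0.43 ± 0.15, adjusted p = 0.088), although the groups did not overlap. Alox5ap, the membrane protein that presents arachidonic acid to the enzyme, had 0.633, 0.756, 0.296 and 0.663 on the atherogenic diet, against 0.2, 0.127, 0.256, 0.226 and 0.175 on chow (log2 1.53 ± 0.29, adjusted p = 0.00887). Ptgr1, which inactivates leukotriene B4, rose 2.58-fold (log2 1.37 ± 0.17, adjusted p = 0.000834). Cyp4f14, a leukotriene B4 hydroxylase of mouse liver, had 6.88, 6.04, 5.65 and 5.95 on the atherogenic diet, against 15.8, 15.6, 13.6, 8.81 and 13.6 on chow (log2 -1.11 ± 0.18, adjusted p = 0.00418). The phospholipase Pla2g4a, which releases arachidonic acid, rose by 1.74 ± 0.38 (adjusted p = 0.0184), a call lost without atherogenic mouse A (adjusted p = 0.06), without chow mouse A (0.0503) and in the fit of all 19 arrays (0.0555), over a range of 0.0032 to 0.06.

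Genes of other tissues that could contaminate a liver sample were also examined. None of 10 red blood cell genes, 14 pancreas genes or 9 adipose genes passed, and 1 of 10 skeletal muscle genes did, downward. The red blood cell genes had a median log2 difference of -0.42, with 7 of 10 below 0. Over the 9 of them with a value in every mouse, the mean log2 level relative to the chow mean was -0.50, -0.49, -0.46 and -0.25 in atherogenic mice A to D, against -0.19, -0.05, 0.07, 0.10 and 0.075 in chow mice A to E. These means did not overlap, while the summed intensity of the same 9 genes did, at 25.1 to 47.3 on the atherogenic diet and 21.3 to 36.9 on chow. For the 12 pancreas genes with a value in every mouse the sum ran from 1.54 to 2.13 on the atherogenic diet and from 1.72 to 2.44 on chow. The part of these genes in the other results was not tested.

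The diet's effect was then set beside that in the mice labelled as 5-lipoxygenase knockout. The Alox5 probe did not bear out that label: in the normalisation of all 19 arrays its median was 0.075 in knockout livers on the atherogenic diet (0.0557 to 0.0848) and 0.0444 in knockout livers on chow (0.0363 to 0.0797), and 0.056 in wild-type livers on the atherogenic diet and 0.0448 in wild-type livers on chow. Whether the deleted stretch includes the probe is not known here. In the mice labelled knockout 2243 of 23344 probes passed (9.61%), 1222 higher and 1021 lower on the atherogenic diet. In the same fit 1671 passed in wild type, and 841 passed in both, which is 50.3% of the wild-type calls and 37.5% of the knockout calls. The difference between the effects was tested by limma's interaction term, and 0 of 23344 probes passed, with a lowest adjusted p of 0.49. At an unadjusted p under 0.05 there were 1442 probes, and 15 probes passed without wild-type atherogenic mouse D.

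The log2 effect of the diet was 4.58 ± 0.55 in knockout mice and 5.86 ± 0.39 in wild type for Mmp12, 3.86 ± 0.41 and 4.56 ± 0.31 for Lpl, -4.19 ± 0.59 and -3.82 ± 0.66 for Cd163, and -3.81 ± 0.57 and -4.45 ± 0.30 for Sqle. For Abcg1 it was 2.87 ± 0.36 in knockout mice and 2.70 ± 0.21 in wild type. On the list of LXR and cholesterol efflux 9 of 17 genes were higher in knockout mice, with a median of 0.55, and 11 in wild type, with a median of 0.82; the lists were not tested against each other. Other genes had smaller values in knockout mice, none with an interaction that passed. The effect on Mup6 was -2.90 ± 0.38 in knockout mice and -5.01 ± 0.33 in wild type, that on S100a9 0.48 ± 0.67 and 2.87 ± 0.37, and that on Sult2a8 -0.77 ± 0.44 and -3.30 ± 0.51. Among the 5 lowest unadjusted interaction p in each direction were Slc51b, with 1.06 ± 0.33 in knockout mice and 3.20 ± 0.23 in wild type (interaction -2.11 ± 0.49, unadjusted p = 0.000331), Cyp4f14, with 0.23 ± 0.21 and -1.11 ± 0.18 (interaction 1.37 ± 0.30, unadjusted p = 0.000205), and Susd4, with -1.03 ± 0.34 and -3.17 ± 0.34 (interaction 2.12 ± 0.50, unadjusted p = 0.0004). The adjusted p of all 3 was 0.49.

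**Figure D5:**
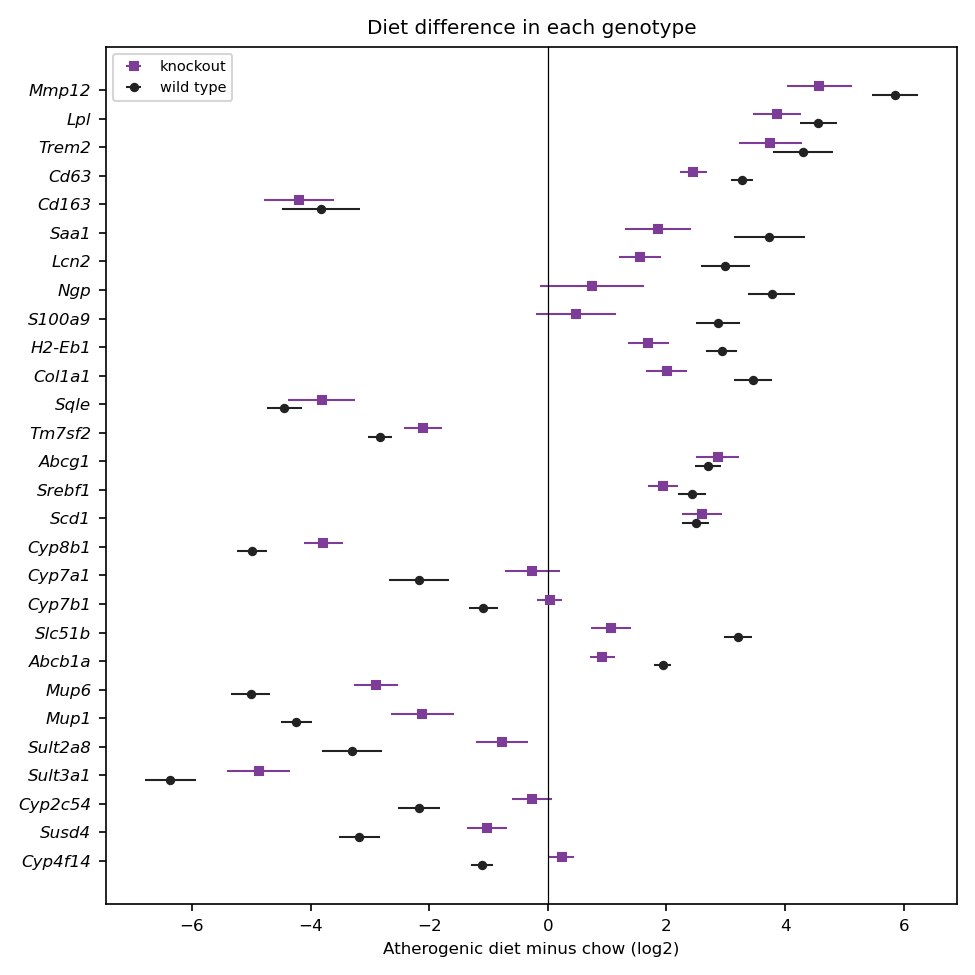
Log2 difference between the atherogenic diet and chow ± SE for 28 genes in mice labelled knockout (purple squares, 5 and 5 mice, above) and in wild-type mice (black circles, 4 and 5 mice, below). Slc51b lies at 1.06 in knockout mice and 3.20 in wild type, Cd163 at -4.19 in knockout mice and -3.82 in wild type, and no difference between genotypes passed the adjusted threshold.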

How the data were processed

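Per the labels' protocols, RNA was isolated from liver with Trizol, and 2 amplification rounds started from 100 ng. The submitters' processing notes list Agilent Feature Extraction 8.5.1.1. Each array has a pool intensity, a mouse intensity and a p-value in the deposited table, per the file headers. How the authors corrected background and balanced the dyes is not stated there, and the deposited p-values were not used. Animal marks in the column heads are absent from the labels, so strain and diet placed each column in a group, and mice are named by letter in column order. All columns belonged to the 4 groups, and 0 were left unmatched.

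Both channels were normalised by loess within and Aquantile between arrays, and log2 mouse (Cy5) intensities were compared with lmFit and eBayes in limma 3.58.1 (R 4.3.3) over probes with at least 3 values in each diet. This left 23418 probes and left out 150. Mice are always Cy5, so a probe's dye bias is shared by both diets. A probe passed at a Benjamini-Hochberg adjusted p under 0.05, and SE is the moderated standard error. The interaction and the knockout effect came from 1 fit of all 19 arrays, the wild-type effect from the 9 wild-type arrays. The fit was tested on simulated data with 50 changed probes for each fold. It recovered 12% of 1.5-fold, 48% of 2-fold, 88% of 3-fold and 96% of 4-fold changes, with 3 false calls. A change of 2-fold or less could therefore often be missed. Genes on the 42 lists were represented by their brightest probe and adjusted over all probes. Array number limits the precision.

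Named genes were the 15 largest rises and falls that passed without overlap and above median brightness, with the probe of lowest p, up to 6 members of each list by size of change, genes at the centre of their pathway, defining cell markers, and the 5 lowest interaction p in each direction. Hmgcs1, Fasn, Nr1h4, Abcb11, Slc10a1 and Col3a1 were chosen after their values were seen. Values of 2 genes are not reported here. The comparison, lists and members were chosen with earlier results of these data known. Promoter sequences are RefSeq's (GRCm38.p6).

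Alternatives were quantile normalisation, equal medians, no loess, bright probes only, 0.01 added before the log, all 19 arrays in 1 fit, an intensity trend or robust eBayes, probes averaged per gene, a 2-fold minimum, each mouse left out and the pool channel.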

Additional observations from a re-analysis of the deposited data

Results flagged for a closer look

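In 23 of 263 sets of values (1 gene in 1 diet group) a single liver lay apart from the rest by Dixon's test, where chance gives about 1 in 20. Among the atherogenic livers, mouse A had 2.84 for Lcn2, with the others at 0.718 to 0.899, and 0.19 for Sult3a1, with the others at 0.0423 to 0.0504. Mouse A also had 0.0139 for Stard4, with the others at 0.0214 to 0.0219, a gap of 1 rounding step. Mouse B had 54.8 for H2-Eb1 (others 25.2 to 27.4), 0.458 for Cyp2c40 (others 0.303 to 0.317) and 2.85 for Ttr (others 2.13 to 2.18). It was low for Il1r1 at 4.2 (others 7.93 to 8.35) and for Krt7 at 0.0778 (others 0.115 to 0.121). Mouse C had 0.571 for Col1a2 (others 0.911 to 0.995). Mouse D had 0.102 for Mx1 (others 0.163 to 0.175), 0.446 for Scd1 (others 0.53 to 0.534) and 0.0435 for Hnf4a (others 0.0815 to 0.0909).

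Among the chow livers, mouse B had 0.748 for Ccl2 (others 0.0784 to 0.116), 8.38 for Marco (others 0.61 to 0.906), 0.439 for Timd4 (others 0.197 to 0.226) and 0.0533 for Egr2 (others 0.0194 to 0.0227), and was low for Alox5 at 0.0334 (others 0.0448 to 0.0455). Mouse C had 9.27 for Ctss (others 5.0 to 5.32) and 9.93 for Sult3a1 (others 4.05 to 5.11). Its values of 0.0263 for Mpo and 0.0194 for Cd79a, each with the others at 0.0218 to 0.0227, and the 0.0121 of chow mouse A for Col3a1 (others 0.0219 to 0.0263) lie where values are rounded to steps of 0.01. Mouse D had 8.81 for Cyp4f14 (others 13.6 to 15.8).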

How the results depend on the processing

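Array number and rounding limit these results: dim genes near 0.02 move in steps of 0.01, and few mice decide many calls. No paired analysis was possible because each mouse had 1 diet and the columns carry animal marks and not the labels' replicate numbers. The labels do not state that mice sharing a replicate number were matched across diets. The number of probes that passed ranged from 1011 to 3075 when 1 mouse was left out, with 733 to 1715 higher and 278 to 1360 lower. A 2-fold minimum left 785, 647 higher and 138 lower. With the array medians set equal 1504 were lower and 846 higher. The other settings gave 1671 to 2350 passing probes, and 60.9% to 97.4% of the 1916 passed in them too. The 60.9% came from the fit of bright probes only, which tested 11646 of the 23418 probes. Calls on dimmer probes could not recur in it. The interaction gave 0 to 15 probes when 1 mouse was left out, and 0 under the other settings run. Of 153 named genes that passed, 106 passed under all settings run on their probe and 47 were lost under at least 1, with causes not tested. These settings leave out the 2-fold minimum, the averaging of probes per gene and the pool channel. Lrp1 changed sign with the array medians set equal (log2 -0.0284), and Atf3 in the pool channel (log2 -0.0883). The other 152 named genes that passed had the same sign in the pools. The pool channel comes from the same arrays and was normalised together with the mouse channel. Whether the pools held RNA of the same mice is not stated, so agreement in sign is not independent support.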

Other observations

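Some gene groups outside the comparisons above also differed. Among 16 measured genes of iron handling 3 rose. Steap4, a metalloreductase, had 18.2, 10.7, 7.02 and 8.75 on the atherogenic diet, against 3.0, 4.16, 3.25, 3.2 and 3.8 on chow (log2 1.6 ± 0.25, adjusted p = 0.00295), and the others were Hpx and Lcn2. Bmp6, the ligand that drives hepcidin, fell by 0.69 on the log2 scale (adjusted p = 0.0232), a call lost without atherogenic mouse A or B (adjusted p = 0.0646 and 0.071) or chow mouse D or E (0.0594 and 0.0537), over a range of 0.013 to 0.071. Among cell cycle genes 4 of 31 were higher; 2 were without atherogenic mouse A or B or chow mouse A or D or with the array medians set equal, and 1 without chow mouse C or E. Top2a, the topoisomerase of dividing cells, was dim and had 0.0503, 0.0711, 0.058 and 0.0527 on the atherogenic diet, against 0.0218, 0.0333, 0.0194, 0.0227 and 0.025 on chow (log2 1.26 ± 0.18, adjusted p = 0.00194). Apoc2, the activator of the lipase Lpl, had 18.6, 25.7, 21.1 and 25.2 on the atherogenic diet, against 12.8, 10.1, 14.3, 13.6 and 11.2 on chow (log2 0.87 ± 0.16, adjusted p = 0.00766), but differed by only 0.27 with the array medians set equal (adjusted p = 0.38, the highest of 17 alternatives, the lowest being 0.00161).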
